A study of Mus musculus with 2 samples.

Results

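Kinesins are motor proteins that use ATP to walk along microtubules or to take them apart. In the mouse they are encoded by the Kif genes. The 38 genes whose symbol has the form Kif, a number and at most a letter from a to c were taken from the 32285 genes in the deposited count matrices, and the 37 with at least 20 unique molecular identifiers (UMIs, each standing for one captured RNA molecule) over both libraries were kept. The gene left out, Kif2b, had 0 UMIs in both libraries. They were measured in single-cell RNA libraries from hearts of embryos at the embryonic stage E10.5, one library per genotype, each made from 4 pooled hearts. Embryos of the wildtype library were BubR1+/+ and those of the knockout library BubR1fl/fl, and both groups carried one copy of Nkx2.5-cre, a Cre recombinase under the control of a cardiac progenitor gene. Such a Cre acts in the Nkx2.5 lineage, so by design cells outside it would keep an undeleted floxed gene, but recombination was not measured here. BubR1, encoded by Bub1b, is a kinase-like protein of the spindle assembly checkpoint, which holds a dividing cell until its chromosomes are attached to the spindle.

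One branch of the kinesin family builds the mitotic spindle, moves chromosomes on it and organises the cleavage of the cell, and its genes are switched on as cells approach division. Another branch carries vesicles, mitochondria and other cargo along microtubules in cells whether or not they divide. A further branch works in and at the base of the cilium, where it moves building blocks to the tip and takes part in hedgehog signalling. The embryonic heart still grows by division of its cardiomyocytes at this stage.

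The libraries stood apart in ways that the genotype labels do not describe. After removal of barcodes with fewer than 3000 UMIs, fewer than 500 genes or more than 20% mitochondrial UMIs, 7440 cells with a median of 9504.5 UMIs remained in the wildtype library and 5966 cells with a median of 17042.5 UMIs in the knockout library, and 8 cell barcodes occurred in both. The gene minimum removed 3642 wildtype barcodes and 15 knockout barcodes, the former with 88.7% hemoglobin UMIs. Adult-type chains made up 22.4% of the beta-globin UMIs of erythroid cells in the wildtype library and 4.32% in the knockout library. With 1 library per genotype, genotype, library, depth and any difference in the age of the blood cells cannot be told apart, no library can be left out, and no p-value is given. Intervals are 95% intervals that cover counting error only.

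Cells were sorted into classes by summed marker levels. The 5 classes with at least 50 cells in both libraries were cardiomyocytes (545 wildtype and 568 knockout cells), endothelial or endocardial cells (1186 and 663), mesenchymal cells (1802 and 593), epicardial cells (715 and 2034) and erythroid cells (1807 and 1135). Their own markers were among the 10 genes most raised in each class, and no marker of another class was. Macrophages (225 cells, wildtype), megakaryocytes (102, knockout) and hepatic-like cells (57, knockout) were large enough in a single library. Levels are in CPM, UMIs of the gene scaled to a common total per class and library. A UMI stands for a captured molecule, so CPM was not scaled by gene length. The efficiency of capture may differ between genes, also with their length, and this was not tested. Ratios are log2 of knockout over wildtype CPM after subtracting the log2 ratio of the class's median gene. That median was -0.13 in endothelial and 1.53 in erythroid cells and within 0.1 of 0 in the other 3 classes.

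The targeted gene was present in both libraries. Cardiomyocytes held 483 UMIs (58.7 CPM) in the wildtype and 346 UMIs (30.7 CPM) in the knockout library, a relative log2 ratio of -0.94 (-1.14 to -0.73). The ratio was 0.58 (0.34 to 0.82) in endothelial, 0.12 (-0.05 to 0.29) in mesenchymal, 1.04 (0.79 to 1.29) in epicardial and 1.19 (0.897 to 1.502) in erythroid cells. Bub1b was thus lower in the knockout library in cardiomyocytes and not in the other 4 classes. The sources used here do not give the deleted exons, and reads near the end of the transcript may lie outside them, so these levels do not check the label.

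The family divided clearly by its correlation with Top2a, a DNA topoisomerase made mainly by cycling cells. Pearson's r was computed across cells on log-normalised UMIs in each of the 13 combinations of class and library, and a gene was placed in the mitotic group when its median r was above 0.15. This gave 12 mitotic kinesins and 25 others. All 11 genes on a textbook list of mitotic kinesins were in the group, led by Kif11 at a median r of 0.726, Kif15 at 0.655, Kif20b at 0.650, Kif23 at 0.633 and Kif4 at 0.630. Kif24, which acts on centrioles and restrains cilium formation, was the last inside at 0.255. Just outside were Kif5b, the ubiquitous heavy chain of conventional kinesin, at 0.132, and Kif2a, which shortens microtubules at spindle poles and in axons, at 0.086. Kif2a was not on the textbook list despite its role at spindle poles, so the match depends on how that list was drawn. The same 12 genes were found with Mki67 in place of Top2a, with Spearman's rho and with a minimum of 0.25, and a minimum of 0.1 added Kif5b to them. Cells of a class share their library and differ in depth, and with every cell thinned to 3000 UMIs the median r of Kif11 was 0.443 and Kif24 fell outside, leaving 11 genes.

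**Figure D1:**
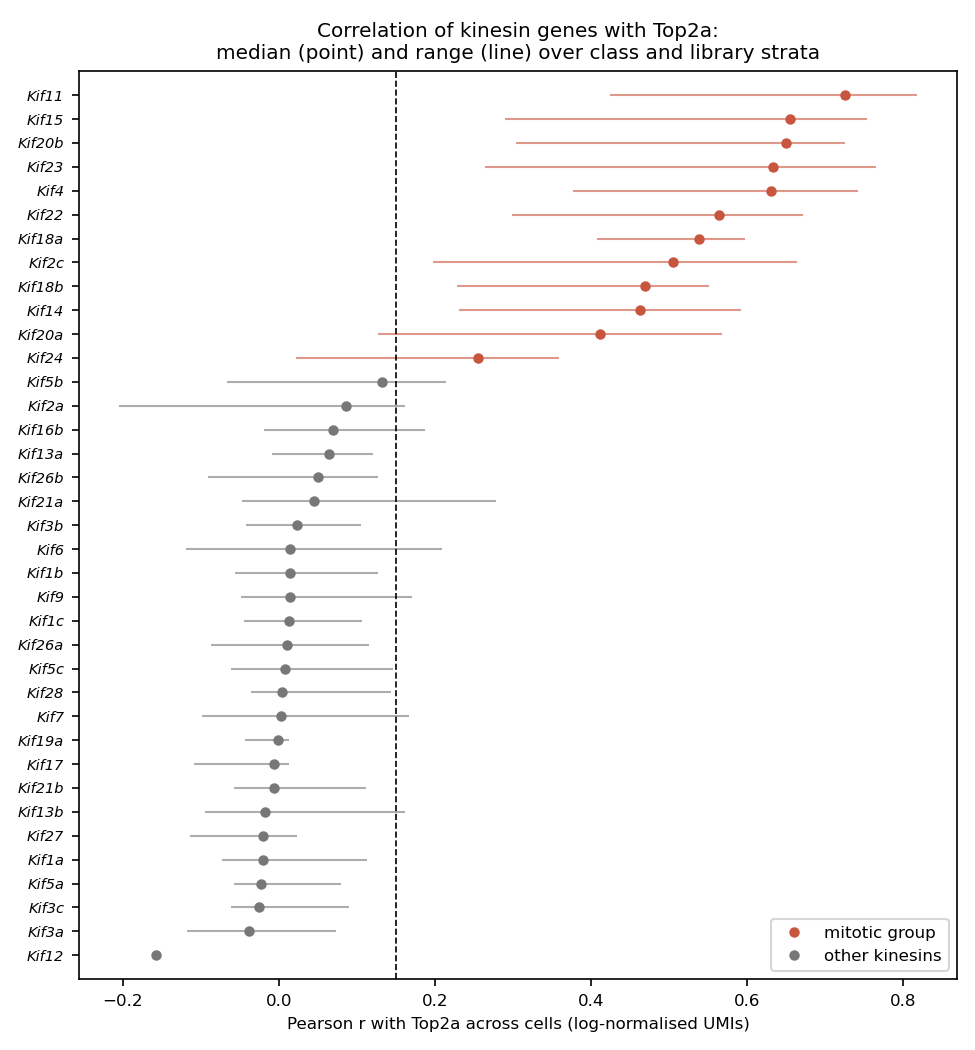
Pearson's r with Top2a across cells for each of the 37 kinesin genes (x axis, no unit; genes on the y axis), with the median over the class and library strata as a point and the range as a line; the dashed line is the minimum of 0.15. The 12 mitotic kinesins lie between 0.255 and 0.726, and the highest of the other 25 is Kif5b at 0.132.

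Within the mitotic group the genes also tracked each other. Over the 66 pairs the median r ranged from 0.069 to 0.608, with a middle value of 0.405. The 3 genes outside the family that followed the summed mitotic kinesins most closely, among 12262 genes with at least 500 UMIs, were Top2a (median r 0.831 over 13 strata), Mki67 (0.788), a protein of the chromosome surface in cycling cells, and Tpx2 (0.763), a spindle assembly factor. Top2a was itself used to choose the group in these cells, so this order describes the choice and adds no independent evidence. Members differed in how closely they followed genes of S phase and of mitotic entry, and Kif11 was among the highest for both. The S-phase level was the mean of log-normalised Mcm2, Mcm3, Mcm4, Mcm5, Mcm6, Mcm7 and Pcna. Kif24 at 0.214, Kif15 at 0.199 and Kif11 at 0.129 had the highest median r with that level, and Kif20a the lowest at -0.088. With Ccnb1, the cyclin of mitotic entry, the median r was 0.579 for Kif11, 0.569 for Kif23 and 0.550 for Kif20b, and 0.102 for Kif24.

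Because these genes rise and fall together across cells, the start regions of their promoters are shown. RefSeq windows on the build GRCm38.p6, from 250 bases before to 50 bases after each start, were found for 30 of the 37 genes, among them 11 of the 12 mitotic ones. Both strands were searched for TTTGAA, the usual core of the cell cycle homology region through which many mitotic genes are repressed in resting cells. It reads TTCAAA when it lies on the other strand. The search also covered CCAAT, the box often found with that core, which then reads ATTGG. From 60 bases before to 30 bases after the start, the core occurred in 7 of 11 mitotic genes and in 2 of 19 other kinesin genes, against 4.62% of 32851 windows of all genes. The box occurred there in 5 of 11 and 1 of 19 genes, against 14.0%. Over the whole 300-base windows the core was present in 9 of 11 and 3 of 19 genes (17.9% of all windows), and the box in 7 of 11 and 6 of 19 (37.4%). TTTAAA, a variant of the first motif, was in 2 mitotic windows and 0 others (13.2% of all), and GCGGGAA, a form of the E2F site, in 0 mitotic windows and 2 others (4.6%). A match is a description of letters and not a measured site. The 7 mitotic windows with the core near the start are printed with both motifs in capitals, followed by Kif18a, a mitotic kinesin with neither, and by the outermost of 2 starts of Kif2a, a kinesin outside the group.
Kif11, chr19:37376322-37376411, plus strand: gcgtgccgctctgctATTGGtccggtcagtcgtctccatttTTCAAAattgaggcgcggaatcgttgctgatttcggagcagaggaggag
Kif15, chr9:122951021-122951110, plus strand: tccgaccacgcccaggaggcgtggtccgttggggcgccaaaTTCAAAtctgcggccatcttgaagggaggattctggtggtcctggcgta
Kif22, chr7:127042391-127042480, minus strand: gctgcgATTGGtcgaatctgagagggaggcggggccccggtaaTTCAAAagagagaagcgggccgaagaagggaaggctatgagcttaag
Kif20b, chr19:34922298-34922387, plus strand: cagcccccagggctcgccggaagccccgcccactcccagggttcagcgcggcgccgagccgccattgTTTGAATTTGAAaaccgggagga
Kif23, chr9:61946770-61946859, minus strand: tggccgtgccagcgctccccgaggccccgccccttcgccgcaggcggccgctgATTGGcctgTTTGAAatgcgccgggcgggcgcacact
Kif18b, chr11:102925095-102925184, minus strand: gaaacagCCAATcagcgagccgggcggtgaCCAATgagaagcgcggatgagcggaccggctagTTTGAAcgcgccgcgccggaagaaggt
Kif4, chrX:100626005-100626094, plus strand: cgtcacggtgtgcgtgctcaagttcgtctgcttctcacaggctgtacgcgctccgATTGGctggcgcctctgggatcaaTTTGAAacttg
Kif18a, chr2:109280678-109280767, plus strand: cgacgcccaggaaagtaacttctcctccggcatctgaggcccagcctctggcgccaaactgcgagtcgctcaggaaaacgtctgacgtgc
Kif2a, chr13:107022326-107022415, minus strand: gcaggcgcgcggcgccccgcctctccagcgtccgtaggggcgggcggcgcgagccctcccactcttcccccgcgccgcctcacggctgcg

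The paired letters lay close together. In Kif11 the box began 45 bases and the core 19 bases before the start; in Kif22, 54 and 17 bases. Kif23, Kif18b and Kif4 had the box before the start and TTTGAA 3, 4 and 20 bases after it. Kif15 and Kif20b had the first motif without the box, and Kif20b held 2 adjoining copies of TTTGAA.

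The summed mitotic kinesins differed in opposite directions between cardiomyocytes and the other classes. In cardiomyocytes they made up 465 CPM in the wildtype library and 358 CPM in the knockout library, a relative log2 ratio of -0.38 (-0.44 to -0.31). They were higher in the knockout library in the other 4 classes: 365 and 470 CPM in endothelial cells (0.49, 0.43 to 0.56), 493 and 555 in mesenchymal cells (0.26, 0.21 to 0.31), 263 and 612 in epicardial cells (1.28, 1.20 to 1.35) and 30.3 and 386 in erythroid cells (2.14, 2.03 to 2.26). In the knockout library cardiomyocytes thus had the lowest summed level of the 5 classes, while in the wildtype library they were second to mesenchymal cells. The epicardial and erythroid differences were the largest of the 5. The difference between classes was not tested.

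Gene by gene, 2 of 12 mitotic kinesins were at least 1.5-fold lower in knockout cardiomyocytes and 0 at least 1.5-fold higher, where 10.8% of the 13412 genes tested were lower and 9.87% higher. The intervals of 8 of the 12 lay wholly below 0. The share of all genes with such an interval is not given here, so nothing is read from that number. In endothelial cells 4 of 12 were higher and 0 lower (9.02% and 13.5% of all genes), in mesenchymal cells 0 and 0 (10.0% and 18.3%), in epicardial cells 12 and 0 (16.4% and 20.4%), and in erythroid cells 11 and 0 (33.0% and 35.9%). The cardiomyocyte count is thus near the background, and the cardiomyocyte difference was one of small ratios in 1 direction: the median over the 12 genes was -0.35.

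**Figure D2:**
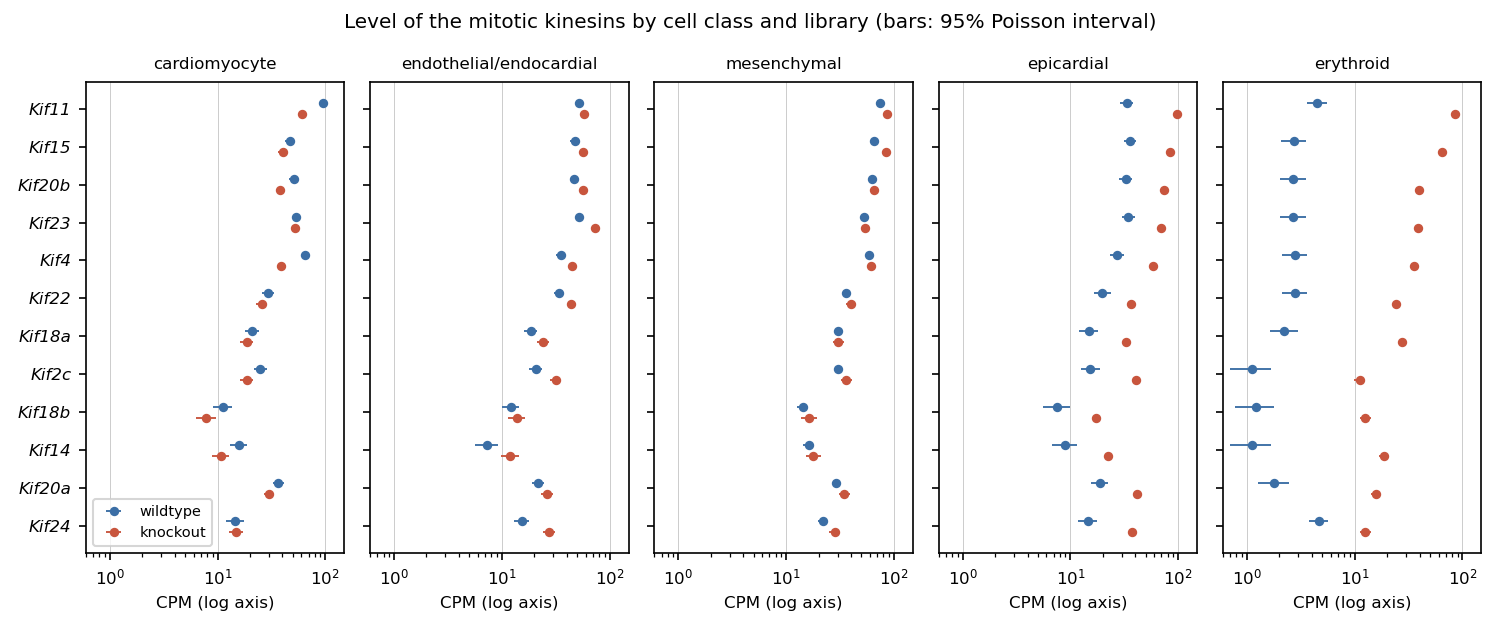
Level of each mitotic kinesin in CPM (log axis) in the 5 classes, wildtype library in blue and knockout library in red, with 95% Poisson intervals. In the epicardial and erythroid panels every red point lies to the right of its blue point; in cardiomyocytes 11 of the 12 red points lie to the left, by at most 0.73 on the relative log2 scale.

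Among the motors that build the cardiomyocyte spindle, Kif11, which slides antiparallel microtubules apart to separate the poles, was the most abundant. It had 784 UMIs (95.3 CPM) in the wildtype and 692 UMIs (61.3 CPM) in the knockout library, a relative log2 ratio of -0.64 (-0.78 to -0.49). Kif15, which can back up Kif11, had 384 UMIs (46.7 CPM) in the wildtype and 456 UMIs (40.4 CPM) in the knockout library (-0.21, -0.41 to -0.01). The interval of Kif15 nearly reached 0, and that of Kif11 did not. Kif2c, a depolymerase that corrects faulty attachments at centromeres, had 205 UMIs (24.9 CPM) in the wildtype and 210 UMIs (18.6 CPM) in the knockout library (-0.42, -0.705 to -0.14). Kif18a, which damps the oscillation of chromosomes on the spindle, had 172 UMIs (20.9 CPM) in the wildtype and 210 UMIs (18.6 CPM) in the knockout library (-0.17, -0.46 to 0.13), and its interval held 0. Kif18b, which shortens astral microtubules, had 92 UMIs (11.2 CPM) in the wildtype and 88 UMIs (7.796 CPM) in the knockout library (-0.52, -0.96 to -0.08).

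The chromosome-bound motors differed from each other. Kif4, which acts in chromosome condensation and in the central spindle, had the lowest ratio of the group with 536 UMIs (65.2 CPM) in the wildtype and 442 UMIs (39.2 CPM) in the knockout library (-0.73, -0.92 to -0.55). Kif22, which pushes chromosome arms towards the spindle equator, had 240 UMIs (29.2 CPM) in the wildtype and 289 UMIs (25.6 CPM) in the knockout library (-0.19, -0.44 to 0.07). The intervals of Kif4 and Kif22 did not overlap. The Kif4 locus overlaps Pdzd11 on the other strand, as Kif18a does Mettl15, Kif20a Cdc23 and Kif2a Dimt1, and the sources used here do not say whether strand was used in counting.

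The ratios of the motors of cytokinesis ran from -0.55 to -0.04, with intervals that overlapped. Kif23, the motor of the centralspindlin complex, had 442 UMIs (53.7 CPM) in the wildtype and 589 UMIs (52.2 CPM) in the knockout library (-0.04, -0.22 to 0.14), so its level was almost the same in both libraries. Kif20a, which brings the chromosomal passenger complex to the central spindle, had 302 UMIs (36.7 CPM) in the wildtype and 341 UMIs (30.2 CPM) in the knockout library (-0.28, -0.51 to -0.05). Kif20b, a midbody motor, had 418 UMIs (50.8 CPM) in the wildtype and 431 UMIs (38.2 CPM) in the knockout library (-0.41, -0.61 to -0.21). The lowest ratio of the 4 was that of Kif14, a partner of citron kinase at the midbody, with 129 UMIs (15.7 CPM) in the wildtype and 121 UMIs (10.7 CPM) in the knockout library (-0.55, -0.92 to -0.18). Kif24 had 120 UMIs (14.6 CPM) in the wildtype and 168 UMIs (14.9 CPM) in the knockout library (0.03, -0.32 to 0.38), the only ratio of the group above 0. For comparison, Top2a was also lower at 367 and 279.9 CPM (-0.39, -0.46 to -0.32), and Mki67 more so at 184 and 97.01 CPM (-0.92, -1.03 to -0.81).

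The cardiomyocyte difference was present in cells with high Myl2, the ventricular myosin light chain, and not detectable in the others. This division at 2000 CPM of Myl2 was chosen after seeing the data. In the 406 wildtype and 417 knockout cells at or above it, the summed mitotic kinesins were at 522 and 374 CPM, a relative log2 ratio of -0.50 (-0.57 to -0.43). In the 139 and 151 cells below it they were at 271 and 295 CPM (0.15, -0.02 to 0.32). Kif4 was at 74.3 and 40.0 CPM in the first set (-0.91, -1.11 to -0.71) and at 34.5 and 35.8 CPM in the second (0.08, -0.40 to 0.57). Kif11 was at 109 and 64.2 CPM in the first set (-0.78, -0.94 to -0.62) and at 49.4 and 50.02 CPM in the second (0.05, -0.36 to 0.46). The intervals of the summed ratios of both sets do not overlap, but the difference between them was not tested.

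In epicardial cells all 12 mitotic kinesins were higher in the knockout library, by relative log2 ratios of 0.95 (Kif22) to 1.59 (Kif11). Kif11 had 214 UMIs (33.4 CPM) in the wildtype and 3768 UMIs (96.8 CPM) in the knockout library (1.59, 1.39 to 1.796). Kif2c was at 15.3 and 40.8 CPM (1.47, 1.18 to 1.78) and Kif24 at 14.5 and 37.7 CPM (1.43, 1.13 to 1.75). These were the 3 highest ratios of the family there, and Top2a was at 198 and 535 CPM (1.49, 1.405 to 1.57) and Mki67 at 96.3 and 212 CPM (1.195, 1.08 to 1.32). The 3 lowest among kinesins with at least 50 UMIs in the class belonged to other branches, and Kif17, with 41 UMIs, lay below them at -1.60. Kif26a, an atypical kinesin that binds microtubules without walking, was at 3.75 and 1.41 CPM (-1.35, -2.07 to -0.595), from 79 UMIs in all. Kif13b, which carries vesicles to the cell membrane, had 456 UMIs (71.2 CPM) in the wildtype and 1199 UMIs (30.8 CPM) in the knockout library (-1.15, -1.31 to -0.99). Kif5c, a heavy chain of conventional kinesin best known in neurons, was at 2.497 and 1.34 CPM (-0.85, -1.68 to 0.06), with an interval that held 0. The summed level of 9 mesenchymal markers, 0 of them absent, was 4195 CPM in wildtype and 1493 CPM in knockout epicardial cells, and its part in these ratios was not tested.

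Endothelial and endocardial cells showed a smaller difference of the same direction for mitotic members. The highest ratio was that of Kif21b, a motor of neurons and immune cells that limits microtubule growth, at 4.87 and 10.2 CPM (1.203, 0.69 to 1.73). It was followed by Kif24 at 15.4 and 27.2 CPM (0.95, 0.66 to 1.25) and Kif14 at 7.26 and 11.9 CPM (0.84, 0.402 to 1.29). Kif2c (0.73, 0.47 to 0.996) and Kif23 (0.61, 0.45 to 0.78) were the other mitotic members past 1.5-fold. Top2a was at 269.7 and 402 CPM (0.71, 0.64 to 0.78), and Mki67 at 128 and 123 CPM (0.07, -0.05 to 0.19), so the interval of Mki67 held 0 where that of Top2a did not. The lowest ratio was that of Kif26b, an atypical kinesin linked to cell adhesion and non-canonical Wnt signalling, with 1096 UMIs (109 CPM) in the wildtype and 410 UMIs (45.2 CPM) in the knockout library (-1.14, -1.31 to -0.97). Its relative Kif26a was at 19.7 and 11.8 CPM (-0.61, -0.96 to -0.26), and Kif1c, a vesicle motor, at 21.4 and 13 CPM (-0.59, -0.92 to -0.26).

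Mesenchymal cells had the smallest mitotic difference of the 5 classes, with ratios from 0.11 (Kif18a) to 0.45 (Kif24). Of the 12 intervals, 7 lay above 0, and the share of all genes with such an interval is not given here. Top2a was at 389 and 498 CPM (0.44, 0.39 to 0.498) and Mki67 at 192 and 174 CPM (-0.05, -0.14 to 0.04). The widest ratios lay outside the mitotic group. The highest were those of Kif21b at 6.26 and 16.03 CPM (1.44, 1.07 to 1.81), Kif26a at 3.72 and 8.74 CPM (1.32, 0.83 to 1.81) and Kif21a, which restrains microtubule growth at the cell cortex, at 11.96 and 23.5 CPM (1.06, 0.78 to 1.35). Among kinesins with at least 50 UMIs in the class, the lowest were those of Kif5c with 245 UMIs (13.8 CPM) in the wildtype and 40 UMIs (4.48 CPM) in the knockout library (-1.54, -2.06 to -1.05), of Kif27, a relative of the hedgehog regulator Kif7, at 2.43 and 1.01 CPM (-1.18, -2.401 to -0.12) from 52 UMIs in all, and of Kif1a, a motor of synaptic vesicle precursors, at 7.84 and 4.596 CPM (-0.68, -1.22 to -0.17). Below that minimum, Kif17 was at -2.80 from 47 UMIs and Kif5a at -0.82 from 33 UMIs. The summed level of 9 neural markers in these cells was 34.0 CPM in the wildtype and 83.2 CPM in the knockout library (0 and 1 of the 9 absent). The 9 mesenchymal markers summed to 6657 and 3972 CPM (0 absent in both). The part of neural or mesenchymal marker differences in these ratios was not tested.

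Erythroid cells had the widest difference, and it rests on few wildtype molecules: 628 mitotic kinesin UMIs in 1807 wildtype cells against 9383 in 1135 knockout cells. Hemoglobin genes took up 81.2% of erythroid UMIs in the wildtype library and 46.6% in the knockout library. The sums were recomputed with a total without hemoglobin and mitochondrial genes and no median gene subtracted. The erythroid sums then stayed within counting error of 2.14 (mitotic) and -0.24 (other). Kif15 had 57 UMIs (2.75 CPM) in the wildtype and 1565 UMIs (64.4 CPM) in the knockout library (3.02, 2.64 to 3.43), Kif11 4.48 and 85.8 CPM (2.73, 2.43 to 3.04) and Kif14 1.11 and 18.7 CPM (2.54, 1.94 to 3.21). Top2a was at 19.9 and 368 CPM (2.68, 2.53 to 2.82) and Mki67 at 30.7 and 467 CPM (2.39, 2.28 to 2.51). Kif24 was the exception in the group at 4.63 and 12.6 CPM (-0.09, -0.42 to 0.26). Among kinesins with at least 50 UMIs in the class, the lowest ratios were those of Kif3a, a subunit of the motor that builds cilia, at 4.19 and 3.17 CPM (-1.94, -2.397 to -1.48), of Kif1b, a vesicle and mitochondrial motor, at 10.3 and 12.9 CPM (-1.21, -1.47 to -0.95), and of Kif26b at 5.397 and 7.29 CPM (-1.099, -1.45 to -0.74). Below that minimum, Kif5a had 20 wildtype and 0 knockout UMIs, and Kif1c (-2.10, 43 UMIs) and Kif3c (-1.55, 41 UMIs) were also lower. Kif1b and Kif26b had higher CPM in the knockout library, and with all UMIs as the total their sign depends on the subtraction of the median gene. Without hemoglobin and mitochondrial genes in the total, and with no subtraction, neither ratio reversed. The 3642 hemoglobin-dominated wildtype barcodes removed by the gene minimum held 1177 kinesin UMIs, 49.5 CPM, against 139 CPM in the wildtype erythroid cells kept.

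**Figure D3:**
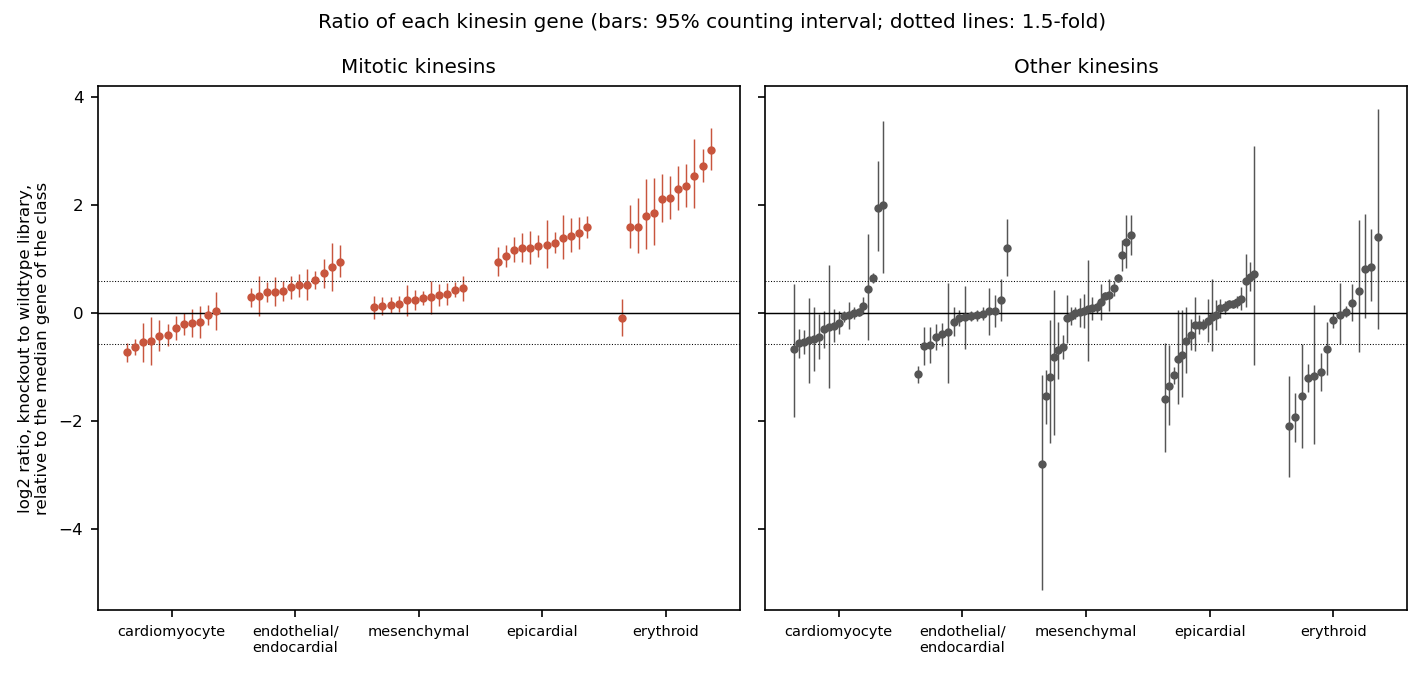
Log2 ratio of knockout to wildtype CPM relative to the median gene of the class (y axis) for each mitotic kinesin (left) and each other kinesin with at least 20 UMIs in the class (right), ordered by ratio within each class, with 95% counting intervals; dotted lines mark 1.5-fold, and Kif5a in erythroid cells, with 0 knockout UMIs, is not drawn. Mitotic kinesins lie below or near 0 in cardiomyocytes and above 0 in epicardial cells, and above 0 in erythroid cells apart from Kif24 at -0.09, while the other kinesins lie on both sides of 0 in every class.

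Counted per cell, the share of cardiomyocytes with any mitotic kinesin UMI was nearly the same in both libraries. The knockout share was lower mainly at 4 UMIs and above. With every cell thinned to 3000 UMIs, 43.1% of 545 wildtype and 42.1% of 568 knockout cardiomyocytes had at least 1 mitotic kinesin UMI (exact binomial intervals 38.9% to 47.4% and 38.0% to 46.3%). At least 3 UMIs were found in 16.9% (13.8% to 20.3%) and 11.8% (9.26% to 14.7%), with intervals that overlap. Exactly 2 UMIs were found in 8.07% of wildtype and 12.1% of knockout cardiomyocytes, and exactly 3 in 4.95% and 5.81%. Exactly 4 were found in 4.77% and 2.46%, and 5 or more in 7.16% and 3.52%. The direction thus depends on the number of UMIs asked for. No cell was left out by thinning, since each held at least 3000 UMIs. Without thinning 60.2% and 66.4% had at least 1, at median depths of 13544 and 18237 UMIs, an order opposite to that of the CPM from which nothing is read.

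In the other classes the share of cells itself differed. Thinned shares with at least 1 UMI were 29.5% and 41.2% in endothelial, 36.2% and 52.8% in mesenchymal, 22.0% and 54.5% in epicardial and 7.47% and 58.7% in erythroid cells, wildtype first. Without thinning they were 42.1% and 62.9%, 51.0% and 76.1%, 34.4% and 80.04%, and 17.6% and 93.1%. No class is known to lack these genes. Hemoglobin takes a larger part of wildtype erythroid UMIs, so thinning by the total leaves fewer other UMIs in those cells: the median outside hemoglobin was 1726 UMIs in wildtype and 10507 in knockout erythroid cells before thinning. With each erythroid cell thinned to 500 UMIs outside hemoglobin, a setting chosen after seeing the data, the shares were 5.09% (4.12% to 6.21%) and 26.2% (23.6% to 28.8%), with 0 cells left out. The lowest share was that of wildtype erythroid cells, at a median depth of 11233 UMIs against 20535 in knockout erythroid cells. Free RNA, estimated from barcodes of 10 to 100 UMIs and the hemoglobin found in non-erythroid cells, made up at most 1.94% to 5.01% of the UMIs of the other 4 classes.

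**Figure D4:**
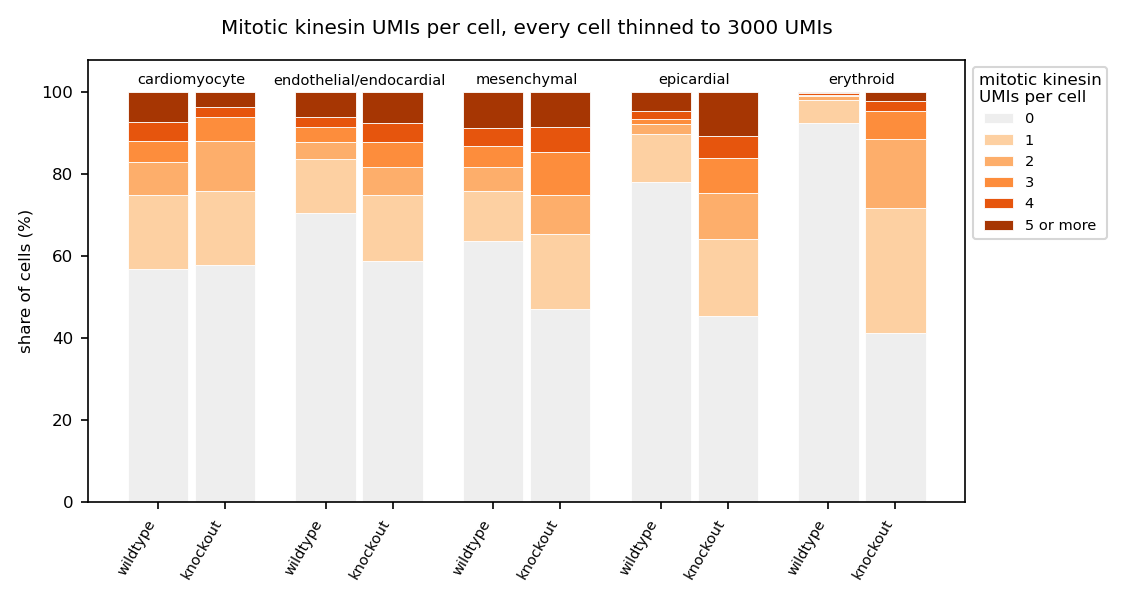
Share of cells in percent (y axis, stacked to 100) by the number of mitotic kinesin UMIs per cell after thinning each cell to 3000 UMIs, for the 5 classes and both libraries. Cardiomyocytes have almost the same share at 0 in both libraries (56.9% and 57.9%), and the wildtype erythroid bar is at 0 for 92.5% of cells.

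Set against Top2a, the mitotic kinesins of cardiomyocytes were in nearly the same proportion in both libraries. The group was chosen by its correlation with Top2a in these cells, so this proportion is no independent evidence. There were 1.27 mitotic kinesin UMIs per Top2a UMI in wildtype and 1.28 in knockout cardiomyocytes, a log2 ratio of 0.013 with an exact conditional interval of -0.08 to 0.11. In the other classes the proportion was lower in the knockout library: 1.35 and 1.17 in endothelial cells (-0.21, -0.31 to -0.12), 1.27 and 1.11 in mesenchymal cells (-0.18, -0.26 to -0.11), 1.32 and 1.14 in epicardial cells (-0.21, -0.32 to -0.10), and 1.52 and 1.05 in erythroid cells (-0.53, -0.72 to -0.35). Set against Mki67 the order was another one. There were 2.53 and 3.69 mitotic kinesin UMIs per Mki67 UMI in cardiomyocytes (log2 ratio 0.54, 0.41 to 0.67), 2.84 and 3.81 in endothelial cells (0.42, 0.29 to 0.56), 2.57 and 3.19 in mesenchymal cells (0.31, 0.21 to 0.41), 2.73 and 2.89 in epicardial cells (0.080, -0.060 to 0.22) and 0.984 and 0.828 in erythroid cells (-0.25, -0.42 to -0.084). The direction thus depended on the reference gene in endothelial and mesenchymal cells, and in epicardial cells the interval against Mki67 held 0. In cardiomyocytes the proportion was level against Top2a and higher in the knockout library against Mki67.

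The make-up of the mitotic group differed in a few members. Kif11 made up 20.5% of mitotic kinesin UMIs in wildtype cardiomyocytes (exact binomial interval 19.2% to 21.8%) and 17.1% in knockout cardiomyocytes (16.0% to 18.3%). Kif4 made up 14.0% (12.9% to 15.2%) and 10.9% (10.0% to 11.95%), and Kif23 11.6% (10.6% to 12.6%) and 14.6% (13.5% to 15.7%). For these 3 genes the intervals of the libraries did not overlap, and for the other members in cardiomyocytes they did. The intervals cover counting error only, and no other gene set was set beside these shares. Kif24 was 15.3% of the group in wildtype erythroid cells (12.6% to 18.3%) and 3.26% in knockout erythroid cells (2.91% to 3.64%), and lay between 3.14% and 6.15% in the other 4 classes.

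Outside the mitotic group 5 motors carried most of the signal: Kif5b, Kif26b, Kif2a, Kif1b and Kif13a, an endosome motor. Kif5b was at 304 and 306 CPM in cardiomyocytes, 218 and 191 in endothelial cells, 249 and 293 in mesenchymal cells, 256 and 277 in epicardial cells and 26.4 and 69.2 in erythroid cells. Kif26b was at 172 and 268 CPM in cardiomyocytes, 109 and 45.2 in endothelial cells, 189 and 278 in mesenchymal cells, 235 and 254 in epicardial cells and 5.397 and 7.29 in erythroid cells. It was thus among the most abundant kinesins in cardiomyocytes, mesenchymal and epicardial cells, lower in endothelial cells and lowest in erythroid cells. Kif1b was at 153 and 146 CPM in cardiomyocytes, 161 and 143 in endothelial cells, 138 and 139 in mesenchymal cells, 121 and 134 in epicardial cells and 10.3 and 12.9 in erythroid cells. Kif2a was at 70.1 and 76.7 CPM in cardiomyocytes, 116 and 105 in endothelial cells and 117 and 110.3 in mesenchymal cells. It was at 101 and 105 CPM in epicardial cells and 45.5 and 134 in erythroid cells. In erythroid cells of both libraries Kif2a was the most abundant kinesin. Kif13a was at 139.6 and 139 CPM in cardiomyocytes, 83.1 and 70.9 in endothelial cells, 62.98 and 81.4 in mesenchymal cells, 148 and 122 in epicardial cells and 2.602 and 4.73 in erythroid cells. Erythroid cells had the lowest level of Kif5b, Kif1b and Kif13a among the 5 classes in both libraries. These CPM are shares of all UMIs, and hemoglobin took up 81.2% of erythroid UMIs in the wildtype and 46.6% in the knockout library. The erythroid levels here are thus not separated from the hemoglobin share, between classes or between libraries.

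Several of the rarer motors reached at least 4-fold the mean of the other classes of the same library in 1 class. That mean takes in classes near 0, so the next class could lie close. Kif26a did so in endothelial cells in both libraries, at 19.7 CPM in the wildtype (10.0-fold) and 11.8 CPM in the knockout library (4.89-fold), but in the latter mesenchymal cells followed at 8.74 CPM. Kif5c did so in mesenchymal cells at 13.8 CPM (8.98-fold) and 4.48 CPM (4.04-fold). The next classes were macrophages at 4.14 CPM in the wildtype and cardiomyocytes at 2.92 CPM in the knockout library. Kif1a was highest in epicardial cells at 10.46 CPM (4.40-fold) and 9.07 CPM (5.62-fold), with mesenchymal cells next at 7.84 and 4.60 CPM. Kif6, a motor of the motile cilium, was also highest in epicardial cells, at 20.3 CPM (3.49-fold, short of the rule) and 30.9 CPM (4.66-fold), with mesenchymal cells next at 14.2 and 16.8 CPM. Classes large enough in a single library gave the rest. Kif21b was at 37.7 CPM in wildtype macrophages (10.95-fold), and Kif9, a relative of Kif6, at 8.27 CPM there (7.22-fold) and at 4.87 CPM in knockout megakaryocytes (4.23-fold). The Kif9 levels rest on 18 UMIs in the macrophages and 7 UMIs in the megakaryocytes. Kif19a, which sets the length of motile cilia, was at 2.30 CPM in wildtype macrophages (11.6-fold) from few molecules. Kif12, an epithelial kinesin, was found in the hepatic-like cells of the knockout library alone, with 22 UMIs and 14.2 CPM.

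**Figure D5:**
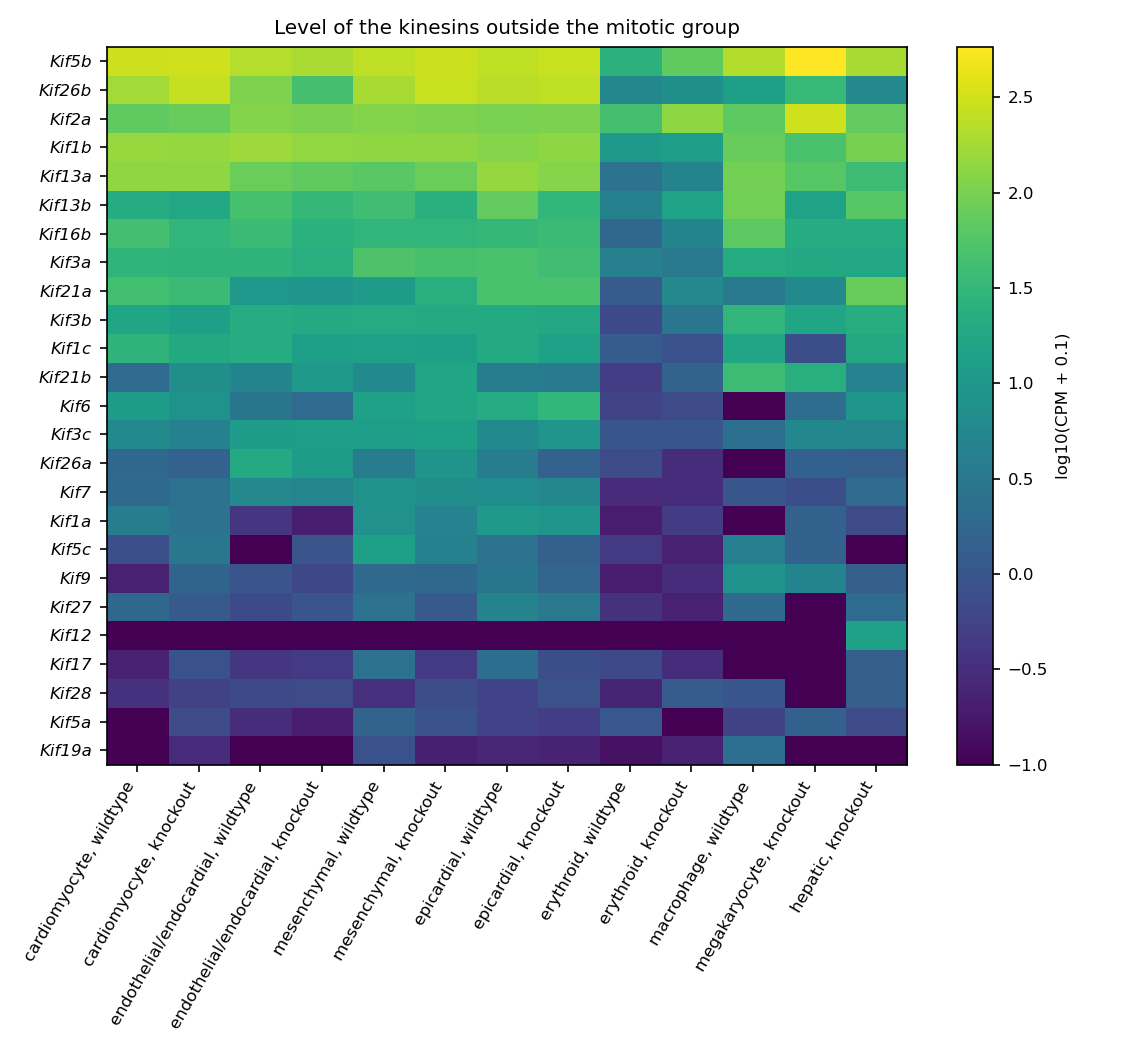
Level of the 25 kinesins outside the mitotic group (rows, ordered by mean level) in each class and library (columns), coloured by log10 of CPM plus 0.1. Kif5b, Kif26b, Kif2a, Kif1b and Kif13a fill the top rows, the erythroid columns are the darkest, and Kif12 appears in the hepatic-like column alone. Hemoglobin took up 81.2% of UMIs in the wildtype and 46.6% in the knockout erythroid column.

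Between libraries the sum of these kinesins was closer to level than that of the mitotic ones in 4 of the 5 classes. Their summed relative log2 ratio was 0.09 (0.05 to 0.13) in cardiomyocytes, -0.19 (-0.23 to -0.14) in endothelial, 0.27 (0.24 to 0.31) in mesenchymal, 0.034 (-0.0018 to 0.069) in epicardial and -0.24 (-0.31 to -0.17) in erythroid cells. Of those with at least 20 UMIs in the class, 3 of 19 were at least 1.5-fold higher and 1 lower in cardiomyocytes, 1 and 3 of 16 in endothelial, 4 and 6 of 22 in mesenchymal, 2 and 5 of 22 in epicardial and 3 and 8 of 16 in erythroid cells. The background shares are those given with the mitotic counts. With all UMIs as the total, the erythroid counts and the sign of the erythroid sum rest on the subtraction of the median gene. By plain ratios of such CPM the sum was at 1.29. Of the 16, 9 were then higher and 1 lower, where 71.0% of all genes were higher and 12.3% lower. By the same plain ratios all 12 mitotic kinesins were higher in erythroid cells. With a total that left out hemoglobin and mitochondrial genes, and no subtraction, the sum of the other kinesins stayed within counting error of -0.24.

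In cardiomyocytes the abundant transport motors were close to level and a few other motors were not. Kif5b had 2502 UMIs (304 CPM) in the wildtype and 3457 UMIs (306 CPM) in the knockout library (0.01, -0.06 to 0.09), and Kif13a (-0.01, -0.12 to 0.103), Kif1b (-0.06, -0.17 to 0.04) and Kif2a (0.13, -0.02 to 0.29) also had intervals that held 0. Kif26b had 1418 UMIs (172 CPM) in the wildtype and 3026 UMIs (268 CPM) in the knockout library (0.64, 0.55 to 0.73). Kif21b had 16 UMIs (1.95 CPM) in the wildtype and 84 UMIs (7.44 CPM) in the knockout library (1.94, 1.15 to 2.81), and Kif5c 6 UMIs (0.729 CPM) in the wildtype and 33 UMIs (2.92 CPM) in the knockout library (2.005, 0.73 to 3.55). Kif27 was the only one of these at least 1.5-fold lower, with 26 UMIs in all and an interval that held 0 (-0.68, -1.92 to 0.54). Kif1c (-0.57, -0.84 to -0.29) and Kif16b, a motor of early endosomes (-0.54, -0.75 to -0.32), were lower by less than 1.5-fold. The 9 mesenchymal markers summed to 224 CPM in wildtype and 582 CPM in knockout cardiomyocytes with 0 absent, and the 8 macrophage markers to 17.6 and 9.12 CPM with 0 absent. The part of other cells in the ratios of Kif26b, Kif21b and Kif5c was not tested.

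The motors of the primary cilium were close to level outside the blood cells. Kif3a and Kif3b, which together carry material up the cilium, had relative log2 ratios of -0.04 (-0.29 to 0.203) and -0.303 (-0.65 to 0.04) in cardiomyocytes, -0.05 (-0.22 to 0.11) and 0.01 (-0.26 to 0.28) in mesenchymal cells, and -0.22 (-0.395 to -0.04) and -0.04 (-0.31 to 0.24) in epicardial cells. Of these the interval of Kif3a in epicardial cells lay below 0. Kif7, the kinesin of hedgehog signalling, was at 8.18 and 7.17 CPM in mesenchymal cells (-0.103, -0.55 to 0.33), its highest class in both libraries. Kif17, another ciliary motor, was lower in the knockout library in mesenchymal (-2.797, -5.13 to -1.16, 47 UMIs) and epicardial cells (-1.600, -2.58 to -0.56, 41 UMIs), but it overlaps Sh2d5 on the same strand, so its reads are uncertain.

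Lists of genes that work with kinesins were set beside these counts. Of 30 spindle partners, among them the kinetochore, passenger complex and checkpoint genes, 0 were at least 1.5-fold higher and 6 lower in knockout cardiomyocytes, with a median of -0.35, the same as for the mitotic kinesins (9.87% and 10.8% of all genes). The list holds Top2a, by which the mitotic group was chosen, and without it 6 of 29 were lower at a median of -0.34. It also holds Cenpe (-0.56) and Kifc1 (-0.40), which are themselves kinesins that the symbol rule left out. The list of adaptors and cargo proteins likewise holds Kifc2 and Kifc3. The lists were not recounted without these kinesins. Among the spindle partners the ratios ran as follows. The lowest was Mki67 at -0.92 (-1.03 to -0.81), and the highest Bub3, a checkpoint protein, at 73.9 and 84.9 CPM (0.20, 0.05 to 0.35). In the other classes 11 of 30 (endothelial), 2 (mesenchymal), 28 (epicardial) and 30 (erythroid) were higher and 0 lower, against 9.02%, 10.0%, 16.4% and 33.0% of all genes higher. By plain ratios the endothelial count was 3, against 5.86% of all genes. The other 3 lists had cardiomyocyte medians between -0.07 and -0.04. Of 17 adaptors and cargo proteins tested there, 0 were higher and 1 lower. The highest was Arl8a, a lysosomal GTPase, at 9.73 and 14.1 CPM (0.54, 0.14 to 0.94), and the lowest Mapk8ip1, a scaffold, at 1.46 and 0.886 CPM (-0.72, -2.09 to 0.62). Of 21 cilium and hedgehog partners 1 was higher and 0 lower: Gli3, a hedgehog transcription factor, at 10.7 and 29.4 CPM (1.46, 1.12 to 1.82). The lowest was Ift80, a cilium transport protein, at 11.8 and 8.33 CPM (-0.50, -0.93 to -0.08). Of 21 dynein and dynactin genes, which form the motor of the opposite direction, 0 were higher and 1 lower. Dynll1 was highest at 837 and 1074 CPM (0.36, 0.32 to 0.40) and Dynlt1b lowest at 1.34 and 0.886 CPM (-0.59, -1.99 to 0.78).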

How the data were processed

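The authors deposited, for each of 2 libraries, a matrix of raw UMI counts per gene and barcode. Per the submitters' processing notes it was made with Cell Ranger 7.1.0 and the mouse build mm10. The matrices hold all 1451246 and 1632950 barcodes, so cells were chosen here: at least 3000 UMIs, at least 500 genes and at most 20% mitochondrial UMIs. The kinesin genes, the markers and the partner lists were chosen with earlier results of these data known, and the marker gates were set after seeing the data. A cell was given a class when its summed markers passed that class's gate. Barcodes passing more than 1 gate (690 wildtype, 220 knockout) were left out and no other doublet caller was run, except that the 299 and 834 cells passing the mesenchymal and epicardial gates went to the class whose gate they exceeded more. Barcodes passing none numbered 434 and 535.

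UMIs were summed per class and library. Ratios carry exact conditional binomial intervals, levels exact Poisson intervals and shares Clopper-Pearson intervals, all for counting error only; the total per library in cells was 79400375 and 110829003 UMIs. A gene was counted as tested in a class with at least 20 UMIs there. Any kinesin could be named; full values are given for the mitotic kinesins in cardiomyocytes, in each other class for the 3 highest and 3 lowest ratios among kinesins with at least 50 UMIs, for the 5 most abundant other kinesins, for those standing 4-fold or more over the other classes on average, for the 3 genes most like the mitotic group and for the extremes of each partner list; further genes were chosen after their values were seen. Alternatives were another total, plain ratios, thinning (by all UMIs and, added later for erythroid cells, by UMIs outside hemoglobin), other cell and gene minimums, stricter gates, subtraction of free RNA and leaving out the deepest cells. The ratio and interval code was tested on simulated data. Promoter windows are from RefSeq. Python 3.11.15, numpy 2.4.6, scipy 1.17.1, pandas 2.3.3 and matplotlib 3.10.9 were used.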

Additional observations from a re-analysis of the deposited data

Results flagged for a closer look

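The ratio of the summed kinesins, knockout to wildtype relative to the class's median gene, took opposite signs in different cell classes, with intervals on one side of 0. For the mitotic kinesins the log2 ratio was -0.38 in cardiomyocytes against 0.49 in endothelial and 0.26 in mesenchymal cells, 1.28 in epicardial cells and 2.14 in erythroid cells. For the other kinesins it was 0.090 in cardiomyocytes and 0.27 in mesenchymal cells against -0.19 in endothelial and -0.24 in erythroid cells. With all UMIs as the total, the erythroid sign of the other kinesins depends on subtracting the class's median gene (1.53). By plain ratios of such CPM that sum was at 1.29. With a total that left out hemoglobin and mitochondrial genes, and no subtraction, it stayed within counting error of -0.24. With 1 library per genotype the difference between classes was not tested.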

How the results depend on the processing

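Sums, counts and shares were recomputed under alternatives, 205 comparisons in all, of which 148 stayed within counting error or within 1.5 times the count. Not every result was recomputed under every alternative. Shares of cells were recomputed only without thinning, for at least 3 UMIs and, in erythroid cells, with 500 UMIs outside hemoglobin. They were not recomputed under other gates or cell minimums. No summed mitotic ratio changed sign except in cardiomyocytes with under 2000 CPM of Myl2. The causes of the other shifts were not tested. With plain ratios of CPM the mitotic sums were 0.36 in endothelial, 0.17 in mesenchymal and 3.67 in erythroid cells, and the other sums -0.32, 0.18 and 1.29 there and -0.021 in epicardial cells. The count of kinesins lower in erythroid cells was then 1 in place of 8, and Kif26b (0.43), Kif1b (0.32) and Kif13a (0.86) turned from lower to higher there. A total without hemoglobin and mitochondrial genes gave 0.38 and 0.18 for the mitotic sums in endothelial and mesenchymal cells, and -0.30, 0.19 and -0.027 for the other sums in endothelial, mesenchymal and epicardial cells. Thinning every cell to 3000 UMIs gave mitotic sums of 0.41 (mesenchymal), 1.47 (epicardial) and 1.56 (erythroid), while the sums of the other kinesins came to 0.042 for cardiomyocytes, 0.36 and -0.0087 for mesenchymal and epicardial cells and -0.51 for the erythroid class. Thinned counts were 1 higher and 6 lower in cardiomyocytes (3 and 3 without thinning), 7 and 2 in mesenchymal cells (4 and 6), 3 lower in epicardial cells (5) and 4 lower in erythroid cells (8). A minimum of 5000 UMIs gave 0.21 for the mitotic sum in mesenchymal cells. Stricter gates gave -0.13, 0.38 and -0.042 for the other sums in endothelial, mesenchymal and erythroid cells.

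Without the 5% of cells with the most UMIs the mitotic sums were -0.27 in cardiomyocytes, 0.81 in endothelial, 0.37 in mesenchymal and 1.69 in epicardial cells, with 1 kinesin lower in cardiomyocytes (3) and 13 higher in endothelial cells (5). With genes of at least 100 UMIs the other sums were 0.23 in mesenchymal and -0.51 in erythroid cells and the mitotic sum 1.87 in erythroid cells, with 3, 1 and 4 kinesins lower in mesenchymal (6), epicardial (5) and erythroid cells (8); fewer genes are tested under that minimum. Cardiomyocytes with at least 2000 CPM of Myl2, a split chosen after seeing the data, gave -0.50 for the mitotic and 0.13 for the other sum, and those under it 0.15 and -0.044. The textbook list of mitotic kinesins gave 2.33 in erythroid cells. The difference in the share of cells with mitotic kinesin UMIs, in percentage points, was -1.04 in cardiomyocytes, 11.7 and 16.6 in endothelial and mesenchymal cells, and 32.5 and 51.2 in epicardial and erythroid cells (21.1 in the last with 500 UMIs outside hemoglobin per cell, a setting chosen after seeing the data); unthinned it was 6.19, 20.8, 25.1, 45.6 and 75.5, and for at least 3 UMIs 5.87, 6.81, 16.7 and 10.6 in the last 4 classes. Of 1371 values for single genes, 1242 stayed, 126 moved and 3 reversed. No paired analysis was possible because there is 1 library per genotype and no replicate. Depth limits the rarer motors: Kif5a, Kif12, Kif17, Kif19a, Kif27 and Kif28 had few UMIs in most classes.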

Other observations

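Classes present in a single library add levels that no comparison can use. In the wildtype library, macrophages had the highest level of 10 of the 12 mitotic kinesins, with 713 CPM in sum, of which Kif15 had 125 CPM and Kif11 111 CPM. Kif4 and Kif20a were highest in cardiomyocytes there. In the knockout library 8 of the 12 were highest in the hepatic-like cells, with 686 CPM in sum, and Kif11 was at 142 CPM. Megakaryocytes of the knockout library had 348 CPM of mitotic kinesins, the lowest level of 6 of the 12, but the highest Kif5b (580 CPM) and Kif2a (312 CPM) of any class in that library.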
